A study of Mus musculus with 42 samples.

Results

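Interferon beta, both chains of its receptor and 7 interferon regulatory factors (IRFs) were followed in mouse bone marrow-derived macrophages. The 10 genes Ifnb1, Ifnar1, Ifnar2, Irf1, Irf2, Irf3, Irf5, Irf7, Irf8 and Irf9 were taken by symbol from 21951 genes with expression values, and all 10 were also among the 12558 genes with decay values. Messenger RNA was sequenced from macrophages grown from the marrow of C57BL/6 mice, 7 to 9 weeks old. The genotypes were wild type (WT) and ΔM, on the same strain background. In ΔM the myeloid lineage lacks tristetraprolin (TTP, encoded by Zfp36), a protein that binds AU-rich elements and promotes mRNA decay. Cells of both genotypes were taken without stimulation (0 h) and after bacterial lipopolysaccharide (LPS, 10 ng/ml) for 3 h and 6 h. At 3 and 6 h actinomycin D (ActD, 5 µg/ml), which stops transcription, was then added, and RNA was taken after 0, 45 and 90 min. The deletion in ΔM (labelled TTP-/-) is driven by Cre from the lysozyme M gene (Lyz2), so it reaches cells that express lysozyme, and the WT mice were littermates. The 42 libraries formed 14 groups of 3 replicates.

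Interferon beta is the type I interferon that macrophages release when LPS engages Toll-like receptor 4. The adaptor TRIF and the kinase TBK1 activate IRF3, which switches on Ifnb1 together with NF-κB. Secreted interferon binds the receptor chains IFNAR1 and IFNAR2, and a complex that holds IRF9 then turns on interferon-stimulated genes, among them Irf7, which feeds back on interferon production. Ifnb1 mRNA carries AU-rich elements in its 3′ untranslated region (UTR).

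The expression values are the authors' deposited FPKM (read counts scaled to transcript length and library total), 1 value per group without ActD, and each half-life is 1 fitted value per condition. No value per library was used, so no spread between replicates, no depth and no test can be given, and every difference below is a description of these values. Zfp36 was listed at 118, 1017 and 1782 FPKM in WT at 0, 3 and 6 h and at 5.98, 16.3 and 31.0 FPKM in ΔM. All 8 macrophage markers found were at 1 FPKM or more in each of the 6 groups, and their summed level ran from 5467 to 12548 FPKM. This sum was lower in ΔM than in WT at every time, at 10128 against 12548 FPKM at 0 h, and Lyz2, the locus that drives Cre, was at 4067 against 6936 FPKM. Without Lyz2 the other 7 markers summed to 6061 FPKM in ΔM and 5611 in WT at 0 h, to 4242 and 4751 at 3 h, and to 3423 and 3428 at 6 h. The 3 markers of plasmacytoid dendritic cells that were found, another source of type I interferon, summed to between 0.48 and 1.77 FPKM. The markers found summed to at most 0.57 FPKM for conventional dendritic cells and 0.36 FPKM for natural killer cells. For T and B cells the sums were at most 0.14 and 0.07 FPKM. Those of neutrophils summed to between 0.13 and 1.55 FPKM, with Ly6g at 0.32 (WT) and 1.15 FPKM (ΔM) at 0 h. Fibroblast markers summed to between 2.74 and 3.5 FPKM, and Col1a1 was above 1 FPKM in each group. In such bulk samples fewer cells of a type and less RNA per cell cannot be told apart.

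The stretches of sequence below show where an AU-rich element lies in Ifnb1 and where TTP was crosslinked to Irf1 and Ifnar1. They are shown because TTP is the protein deleted in ΔM. Capitals mark the pentamer ATTTA, the core of AU-rich elements, written as DNA. The Ifnb1 stretch is bases 689 to 718 of its GENCODE transcript, in the 3′ UTR. It was taken for its pentamers and is not a crosslinked site. The Irf1 and Ifnar1 stretches are the strongest sites that the study's crosslinking tables list for these genes at LPS 3 h. At LPS 6 h the strongest site listed for Irf1 was another one, 3 bases of T in the same 3′ UTR, and that of Ifnar1 began at the same base. The 3 h site of Irf1 lies in the 3′ UTR (chr11:53590609-53590625, plus strand, NCBIM37) and the Ifnar1 site in an intron (chr16:91492551-91492569, plus strand, NCBIM37).
Ifnb1: tttttattaATTTAtaATTTAaattatttt
Irf1: ttgcATTTATTTAtata
Ifnar1: tacattctttttttttttt
The Ifnb1 3′ UTR held 4 ATTTA pentamers within 201 bases, or 19.9 per kb, and was 67.7% A or T. The next densest was that of Irf5, with 3.75 per kb, and the 877 bases of the Irf1 3′ UTR, which include the site shown, held 3. Ifnar2, Irf3 and Irf7 held none, in 1175, 502 and only 42 bases. Of 20007 mouse 3′ UTRs read in the same way, 58.3% held at least 1 pentamer. The Ifnar1 site is a run of T without the pentamer.

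Promoters are shown for 3 genes whose mRNA was at least 1.9-fold higher in WT at 3 h of LPS than before it and whose window matched a binding motif of LPS- or interferon-activated factors, with the match in capitals. RefSeq windows on GRCm38.p6, running 250 bases before to 50 bases after each start site, were found for all 10 genes and searched on both strands. The motifs were the NF-κB motif and the interferon response motif GAAANNGAAA.
Ifnb1, NF-κB motif at -116: aactgaaagtGGGAAATTCCtctgaggcag
Irf1, NF-κB motif at -13: agtccgggccGGGGAATCCCgctaagtgtt
Irf2, interferon response motif at -241: tggggaagtGAAAATGAAAttgacttttcc
The Ifnb1 stretch lies at chr4:88522891-88522920 (minus strand), that of Irf1 at chr11:53769991-53770020 (plus strand) and that of Irf2 at chr8:46739495-46739524 (plus strand). The NF-κB motif was found in 8.46% of 32851 mouse promoter windows and the interferon response motif in 3.44%. Irf2 also held the NF-κB motif. Irf2 was 1.94-fold higher at 3 h in WT, under the 2-fold limit used elsewhere here, and 1.28-fold higher in ΔM. Irf5, Irf7 and Irf8, which passed 2-fold in WT, had no match to either motif. No match overlapped another. Each match describes letters in a window and is no measurement of binding.

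Ifnb1 (ENSMUSG00000048806, GRCm38.p6 chromosome 4, bases 88522025 to 88522794) encodes the interferon itself. In WT it was listed at 0.04 FPKM before LPS, 26.5 FPKM at 3 h and 0.75 FPKM at 6 h. In ΔM it was listed at 0.04, 185.7 and 13.1 FPKM. Both genotypes therefore peaked at 3 h, and ΔM was the higher at both LPS times. The level of 0.04 FPKM before LPS is too low to compare the genotypes. On the log2 scale of FPKM with 1 added, used below for log2 ratios between genotypes and between LPS times, ΔM exceeded WT by 2.77 (6.80-fold) at 3 h and by 3.01 (8.06-fold) at 6 h. Without the added 1 FPKM the log2 ratio was 2.81 at 3 h and 4.13 at 6 h, since the WT level at 6 h was below 1 FPKM. Among genes with a mean FPKM of at least 1 in the pair of groups compared, Ifnb1 ranked 2 of 10770 at 3 h and 4 of 10307 at 6 h by the ratio with 1 FPKM added.

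**Figure D1:**
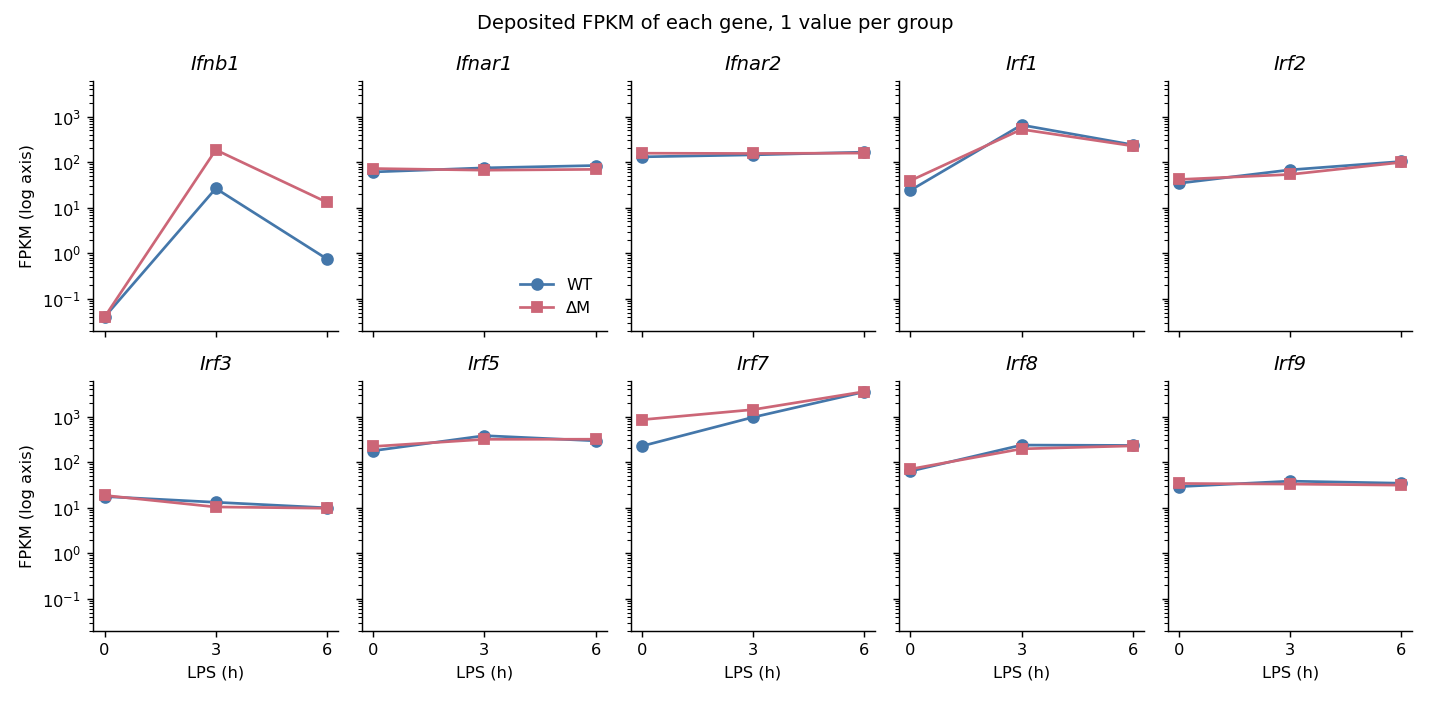
Deposited FPKM (log axis) of the 10 genes at 0, 3 and 6 h of LPS, 1 value per group, in WT (circles) and ΔM (squares). The ΔM line of Ifnb1 lies above WT at 3 and 6 h (185.7 against 26.5 FPKM at 3 h), Irf7 differs most before LPS, and the receptor chains and Irf9 are nearly flat.

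The receptor mRNAs were almost level throughout. Ifnar1 (ENSMUSG00000022967, chromosome 16, bases 91485032 to 91510523), the signalling chain that binds the kinase TYK2, was at 60.9, 74.7 and 84.2 FPKM in WT at 0, 3 and 6 h. In ΔM it was at 72.3, 66.5 and 69.3 FPKM. Ifnar2 (ENSMUSG00000022971, chromosome 16, bases 91372783 to 91405589), the high-affinity chain, was at 130.4, 144 and 165 FPKM in WT and at 157, 155 and 158 FPKM in ΔM. With no FPKM added, the highest level exceeded the lowest by 1.38-fold for Ifnar1 and 1.27-fold for Ifnar2 in WT, and by 1.09-fold and 1.02-fold in ΔM. Per length, Ifnar2 was listed at between 1.93 and 2.33 times Ifnar1 in the 6 groups.

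Irf3 and Irf7 are the IRFs that drive type I interferon genes. Irf3 (ENSMUSG00000003184, chromosome 7, bases 44997648 to 45002848), the constitutive factor, was among the lowest of the 10 genes, with 17.6, 13.2 and 9.95 FPKM in WT and 18.6, 10.4 and 9.75 FPKM in ΔM. Irf7 (ENSMUSG00000025498, chromosome 7, bases 141263183 to 141266499), the interferon-inducible factor, had the highest FPKM of the 10 in each of the 6 groups. It stood at 225, 964 and 3481 FPKM in WT and at 852, 1417 and 3519 FPKM in ΔM. The ΔM level was thus above WT before LPS and at 3 h, and both were alike at 6 h. The log2 ratio of ΔM to WT was 1.92 (3.78-fold) at 0 h, where Irf7 ranked 18 of 11459 genes, 0.56 at 3 h and 0.02 at 6 h. Irf7 exceeded Irf3 by 12.8-fold in untreated WT and 45.7-fold in untreated ΔM, and by 350-fold and 361-fold at 6 h.

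Irf1 and Irf2 bind the same DNA motif, Irf1 mainly as an activator and Irf2 mainly as its repressor. Irf1 (ENSMUSG00000018899, chromosome 11, bases 53770014 to 53778374) was at 24.0, 651 and 239.8 FPKM in WT and at 39.1, 523 and 226 FPKM in ΔM. It peaked at 3 h in both genotypes, with ΔM above WT at 0 h (log2 ratio 0.68) and below it at 3 h (-0.32) and 6 h (-0.08). Irf2 (ENSMUSG00000031627, chromosome 8, bases 46739745 to 46847458) was at 34.3, 67.7 and 103 FPKM in WT and at 41.6, 53.6 and 98.9 FPKM in ΔM. The level of Irf1 was 0.70 times that of Irf2 in untreated WT and 0.94 times in untreated ΔM. At 3 h it was 9.63 times that of Irf2 in WT and 9.75 times in ΔM, and at 6 h 2.33 and 2.29 times.

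Irf5, Irf8 and Irf9 complete the set. Irf5 (ENSMUSG00000029771, chromosome 6, bases 29526130 to 29541869), which drives inflammatory cytokine genes in macrophages, was at 178, 381 and 294 FPKM in WT and at 221, 317 and 318 FPKM in ΔM. Irf8 (ENSMUSG00000041515, chromosome 8, bases 120736358 to 120756694), a lineage factor of monocytes and dendritic cells, was at 63.2, 237 and 232 FPKM in WT and at 70.3, 196 and 227 FPKM in ΔM. Irf9 (ENSMUSG00000002325, chromosome 14, bases 55603985 to 55610030), the DNA-binding part of the interferon response complex, was at 28.98, 38.3 and 34.5 FPKM in WT and at 34.1, 33.0 and 31.3 FPKM in ΔM. Irf5 and Irf8 were higher at both LPS times than before LPS in each genotype, while Irf9 stayed within 1.32-fold in WT and 1.09-fold in ΔM.

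The comparison of ΔM with WT asks which of these mRNAs differ in level between the genotypes. Whether a difference is a direct effect of TTP was not tested. A 2-fold ratio was passed by 1 member at each time, each time with ΔM higher. At 0 h this was Irf7 among 9 members with a mean of at least 1 FPKM (Ifnb1 fell below it), beside 0.925% of 11459 genes that were higher in ΔM and 1.19% that were lower. At 3 h it was Ifnb1 among 10 members, beside 0.613% of 10770 genes higher and 0.947% lower. At 6 h it was again Ifnb1, beside 0.378% of 10307 genes higher and 0.815% lower. Before LPS the 9 members counted had log2 ratios from 0.08 (Irf3) to 1.92 (Irf7), with a median of 0.26 beside -0.05 over all genes. At 3 h the median was -0.24 beside -0.02, and at 6 h -0.05 beside -0.03.

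**Figure D2:**
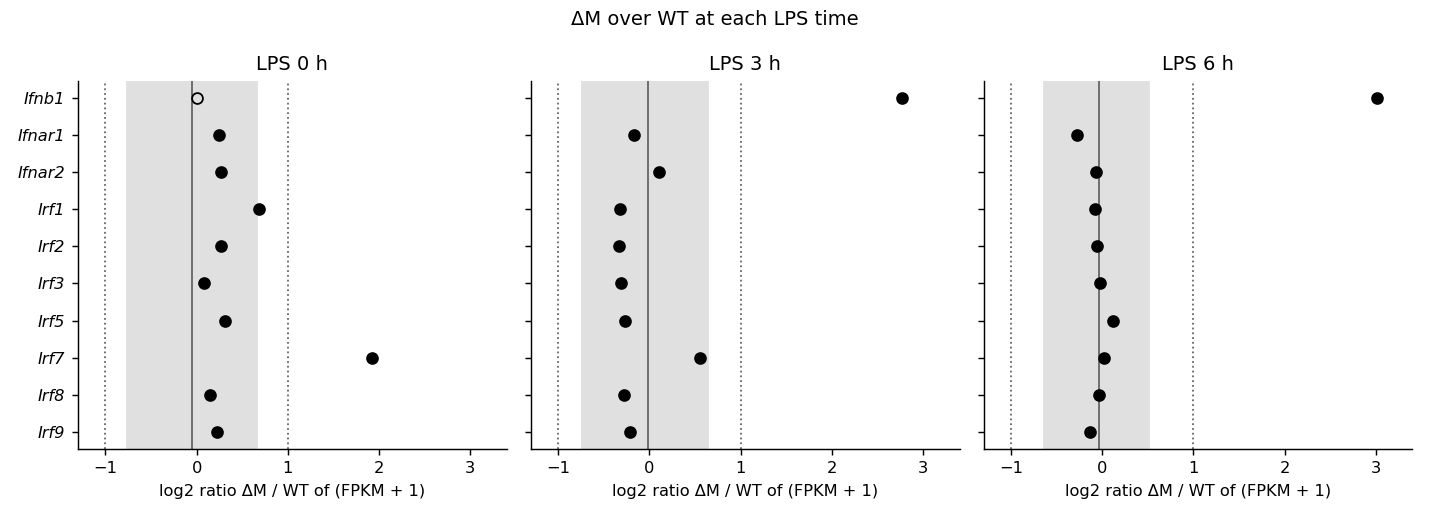
Log2 ratio of ΔM to WT of (FPKM + 1) for the 10 genes at 0, 3 and 6 h of LPS. Grey bands hold all genes with a mean of at least 1 FPKM except the lowest and the highest 2.5%, the solid line is their median, dotted lines mark 2-fold, and the open point (Ifnb1 at 0 h) lies under that mean. Irf7 at 0 h (1.92) and Ifnb1 at 3 h (2.77) and 6 h (3.01) lie past 2-fold.

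At 3 h the ratio of ΔM to WT moved with the GC content of transcripts across 9500 genes (Spearman's rho -0.42, genes not being independent replicates), which was 0.04 at 0 h and -0.01 at 6 h. The members' transcripts had between 44.2% (Ifnb1) and 56.7% (Irf3) GC. With the median ratio of genes of like GC content taken off, an alternative added after the data were seen, the 3 h ratio of Ifnb1 was 2.66, that of Irf7 0.72, that of Irf1 -0.22 in place of -0.32 and that of Irf3 -0.13 in place of -0.31. That of Irf2 was -0.37 in place of -0.33. Whether GC content has a part in the lower ΔM values of most IRFs at 3 h was not tested.

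Genes downstream of the receptor were counted beside Irf7. Of 20 listed interferon-stimulated genes, 13 of the 19 with a mean of at least 1 FPKM were at least 2-fold higher in untreated ΔM cells and 0 were lower, beside 0.925% of all genes higher. Their median log2 ratio was 1.12 beside -0.05 over all genes. Zbp1, a nucleic acid sensor, was at 28.9 (WT) and 123 FPKM (ΔM). Oasl1, an OAS-like protein, was at 17.7 and 72.5 FPKM, and Ifit3, an antiviral protein of the IFIT family, at 13.6 and 55.0 FPKM. Ifnb1 itself was at 0.04 FPKM in both untreated groups, and the 7 interferon alpha genes found summed to 0 FPKM in both.

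At 3 h 1 of the 20 listed genes was at least 2-fold higher in ΔM, beside 0.613% of all genes, and the median log2 ratio was 0.36. This was Ifi44, a microtubule-associated interferon-induced protein, at 6.20 (WT) and 28.8 FPKM (ΔM). At 6 h 0 of 20 were past 2-fold, beside 0.378% of all genes higher, and the median was 0.09. By its median, the ΔM excess of these genes was thus largest before LPS. That of Ifnb1 was seen at 3 and 6 h, its level before LPS being too low to compare. The interferon alpha genes summed to 0.35 (WT) and 5.82 FPKM (ΔM) at 3 h, with Ifna4 at 0.05 and 2.67 FPKM.

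**Figure D3:**
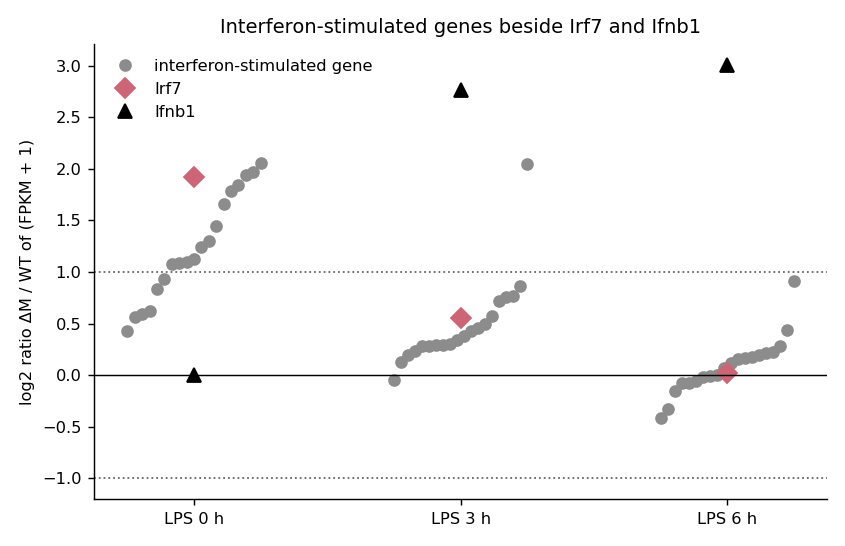
Log2 ratio of ΔM to WT of (FPKM + 1) at each LPS time for the interferon-stimulated genes with a mean of at least 1 FPKM (grey, ordered by value within each time), with Irf7 (diamond) and Ifnb1 (triangle). Dotted lines mark 2-fold. The grey points lie highest at 0 h (median 1.12) and near 0 at 6 h (median 0.09), with Irf7 among them. Ifnb1 lies past 2-fold at both times after LPS. Its triangle at 0 h rests on 0.04 FPKM in both genotypes, under the mean of 1 FPKM, and is too low to compare.

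Of the 12 genes of the receptor arm, Isg15 and Usp18 were past 2-fold in untreated ΔM cells, both higher. Over all genes 0.925% were higher and 1.19% lower. Isg15, a ubiquitin-like modifier, was at 37.6 (WT) and 112 FPKM (ΔM). Usp18, its protease and a feedback inhibitor at IFNAR2, was at 12 and 31.6 FPKM. At 3 and 6 h 0 of 12 were past 2-fold, beside 0.613% and 0.378% of all genes higher and 0.947% and 0.815% lower. A count of 0 in so short a list lies near those shares. Of 15 genes of the induction arm, Ddx58, the RNA sensor RIG-I, was past 2-fold at 0 h, with 23.4 (WT) and 50.7 FPKM (ΔM). Ly96, the MD-2 protein that binds LPS beside Toll-like receptor 4, was past it at 3 h, with 3.22 and 8.04 FPKM. At 6 h 0 of 15 were past it. The induction arm counts stand beside the same shares of all genes, and that of 0 lies near them.

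The response to LPS was read within each genotype. From 0 to 3 h the median log2 ratio of all genes was -0.39 in WT and -0.34 in ΔM, and from 3 to 6 h it was -0.21 in both, so a ratio of 0 lies above the median gene. In WT 5 members were at least 2-fold higher at 3 h than at 0 h, beside 7.41% of 11362 genes, and 0 were lower, beside 12.9%. These were Ifnb1 (log2 ratio 4.72), Irf1 (4.71), Irf7 (2.10), Irf8 (1.89) and Irf5 (1.10). Irf2 stood at 0.96, and at 1.34 relative to the median gene. In ΔM 3 members were at least 2-fold higher, beside 7.50% of 11252 genes, and 0 were lower, beside 11.6%. These were Ifnb1 (7.49), Irf1 (3.71) and Irf8 (1.46). Irf7 stood at 0.73 in ΔM, and at 1.08 relative to the median gene, from a starting level that was already 3.78-fold that of WT. Both ratios of Ifnb1 rest on a level of 0.04 FPKM before LPS and would be 9.37 in WT and 12.2 in ΔM without the added 1 FPKM.

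From 3 to 6 h Irf7 went on to higher levels while Ifnb1 and Irf1 went to lower ones in both genotypes. In WT 1 member was at least 2-fold higher, beside 3.81% of 10661 genes, and 2 were lower, beside 6.30%. The log2 ratio was 1.85 for Irf7, -3.97 for Ifnb1 and -1.44 for Irf1. In ΔM the same 3 genes passed 2-fold, at 1.31, -3.73 and -1.20, beside 3.45% of 10583 genes higher and 6.03% lower. Relative to the median gene the ΔM value of Irf1 was -0.995, just under 2-fold, and that of Irf2 was 1.08. The ratios of ΔM to WT and of the LPS times share groups, so they are given side by side and not compared.

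Other members of the IRF network moved with LPS as well. Irf2bp2, which encodes a corepressor that binds IRF2, went from 28.6 to 0.66 FPKM between 0 and 3 h in WT and from 30.8 to 0.58 FPKM in ΔM. Irf2bpl, its relative, went from 17.6 to 5.77 FPKM in WT and was back at 21.3 FPKM at 6 h. Socs1, the inhibitor of interferon receptor signalling, went from 1.83 to 488 FPKM in WT between 0 and 3 h and to 159 FPKM at 6 h. Of the 20 interferon-stimulated genes, 17 were at least 2-fold higher at 3 h than at 0 h in WT and 15 in ΔM, beside 7.41% and 7.50% of all genes, with Cxcl10, a T cell-attracting chemokine, at 11244 and 10915 FPKM. Of 12 receptor arm genes 6 were higher in WT and 5 in ΔM, and 0 were lower. Of 15 induction arm genes 6 were higher and 2 lower in WT, and 5 higher and 2 lower in ΔM, the lower ones beside 12.9% and 11.6% of all genes.

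Decay was measured after transcription was stopped. The authors' slope is the change of log2 FPKM per min over 90 min of ActD, the half-life is -1 over it, and half-lives from 180 min upward are deposited as stable. FPKM is relative to the other mRNAs of a library, so a slope above 0 describes an mRNA lost more slowly than the rest, and the half-lives and shares left given here are relative in the same way. Slopes were above 0 for between 36.1% and 45.6% of genes at 1 FPKM or more in the 4 conditions.

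Irf1 decayed far faster than any other member. Its half-life was 22.6 min in WT and 27.9 min in ΔM at 3 h, and 26.8 and 31.2 min at 6 h. By these slopes 6.36% (WT) and 10.7% (ΔM) of Irf1 mRNA were left after 90 min at 3 h. Irf1 was the 15th fastest of 10657 genes in WT at 3 h and the 40th of 10591 in ΔM. At 6 h it was the 41st of 10255 in WT and the 40th of 10143 in ΔM. Irf9 was also unstable in each condition, with half-lives of 113.6 and 131.5 min (WT and ΔM) at 3 h and 119.0 and 167 min at 6 h. Irf2 had half-lives of 159.9 min in WT at 3 h, 106 min in WT at 6 h and 164 min in ΔM at 6 h, and was stable in ΔM at 3 h. Irf3 and Irf5 were unstable only in WT at 3 h, at 105 and 128 min. Ifnar1, Ifnar2, Irf7 and Irf8 were stable in all 4 conditions.

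Ifnb1 was listed as stable in WT at 3 h, with a slope just above 0, and had a half-life of 117 min in ΔM. At 6 h it was stable in both, with 73.7% left after 90 min in WT and 81.5% in ΔM, the WT value resting on a level of 0.75 FPKM. In all, 5 of 10 members were unstable in WT at 3 h, beside 21.1% of genes, and 3 of 10 in ΔM, beside 22.6%. At 6 h 3 of 9 members at 1 FPKM or more were unstable in WT, beside 22.5%, and 3 of 10 in ΔM, beside 17% of genes.

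**Figure D4:**
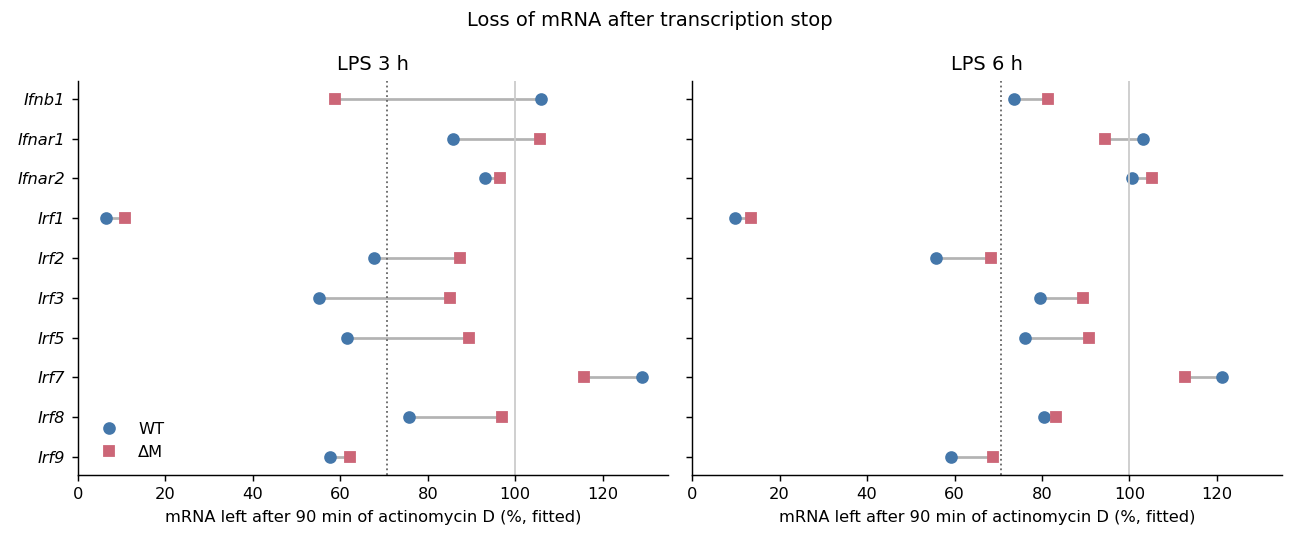
Share of each mRNA left after 90 min of actinomycin D (%), from the deposited slopes, at LPS 3 h (left) and 6 h (right) in WT (circles) and ΔM (squares), 1 fitted value per condition. The dotted line marks a half-life of 180 min, and values above 100% have slopes above 0. Irf1 lies lowest, at 6.36% in WT at 3 h, and Ifnb1 at 3 h is the gene whose ΔM point lies farthest to the left of WT.

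The slopes of ΔM and WT were then compared, with decay called slower or faster where half-lives were at least 2-fold apart or the mRNA was unstable in 1 genotype only. At 3 h 3 members were slower in ΔM (Irf2, Irf3 and Irf5), beside 6.86% of 10653 genes, and 1 was faster (Ifnb1), beside 8.04%. At 6 h 0 members were called, beside 7.57% of 10219 genes slower and 2.29% faster. As log2 units over 90 min, the slope difference of ΔM minus WT at 3 h was 0.63 for Irf3, 0.54 for Irf5, 0.37 for Irf2 and -0.85 for Ifnb1. That of Irf1 was 0.75 at 3 h, above the 3 called as slower, and 0.47 at 6 h, although its half-lives were less than 2-fold apart. That of Irf8 was 0.36 at 3 h, close to that of Irf2, but Irf8 was stable in both genotypes and so was not called.

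The slope difference was above 0 (slower in ΔM) for 8 of 10 members at 3 h, beside 46.3% of all genes, and for 8 of 10 at 6 h, beside 58.9%. Irf7 was below 0 at both times, Ifnb1 at 3 h and Ifnar1 at 6 h. The 3 h difference moved with transcript GC content across 9460 genes (Spearman's rho 0.57), and the 6 h difference did so at -0.03. With the median of genes of like GC content taken off, the 3 h values were 0.66 for Irf1, 0.55 for Irf2, 0.42 for Irf3, 0.35 for Irf5 and -0.54 for Ifnb1. For Ifnb1, whose level was higher in ΔM at both times, the deposited slope difference was -0.85 at 3 h and 0.14 at 6 h. The part of GC content in these differences was not tested.

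Between the LPS times, decay was slower at 6 h than at 3 h for Irf3 and Irf5 in WT, beside 6.21% of 10564 genes (7.73% were faster), and for Ifnb1 in ΔM, beside 8.93% of 10487. Irf2 was faster at 6 h in ΔM, beside 3.69%. Each of these mRNAs was unstable at 1 of the LPS times only. The other corepressor mRNAs of the network were short-lived too. The half-life of Irf2bp2 was 44.8 min in WT and 60.2 min in ΔM at 3 h, the mRNA being under 1 FPKM in both, and that of Irf2bpl was 36.5 and 41.2 min. Socs1 had half-lives of 18.6 min in WT and 23.8 min in ΔM at 3 h.

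The loss of mRNA between 3 and 6 h of LPS was set beside these slopes, a comparison chosen after the values were seen. Ifnb1 went from 26.5 to 0.75 FPKM in WT within 180 min, which is 35.3-fold or 1 halving each 35.0 min. In ΔM it went from 186 to 13.1 FPKM, which is 14.2-fold or 1 halving each 47.1 min. These losses have no FPKM added, and the WT value rests on a 6 h level under 1 FPKM. With 1 FPKM added the loss was 15.7-fold in WT and 13.2-fold in ΔM. Both losses were steeper than either deposited slope, which gave stable mRNA in WT and, in ΔM, a half-life no shorter than 117 min. This was common. Of 1173 genes with decay values that were at least 2-fold lower at 6 h in WT with no FPKM added, 76.3% were lost faster than both slopes, and 76.5% of 1129 in ΔM. By the size of the gap Ifnb1 ranked 1 of 1173 in WT and 24 of 1129 in ΔM.

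Irf1 showed the opposite order. It went down 2.72-fold in WT and 2.31-fold in ΔM between 3 and 6 h, while its 3 h slopes extended over 180 min would give a 247-fold and an 87.7-fold loss. It ranked 1171 of 1173 and 1123 of 1129 by the same measure.

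**Figure D5:**
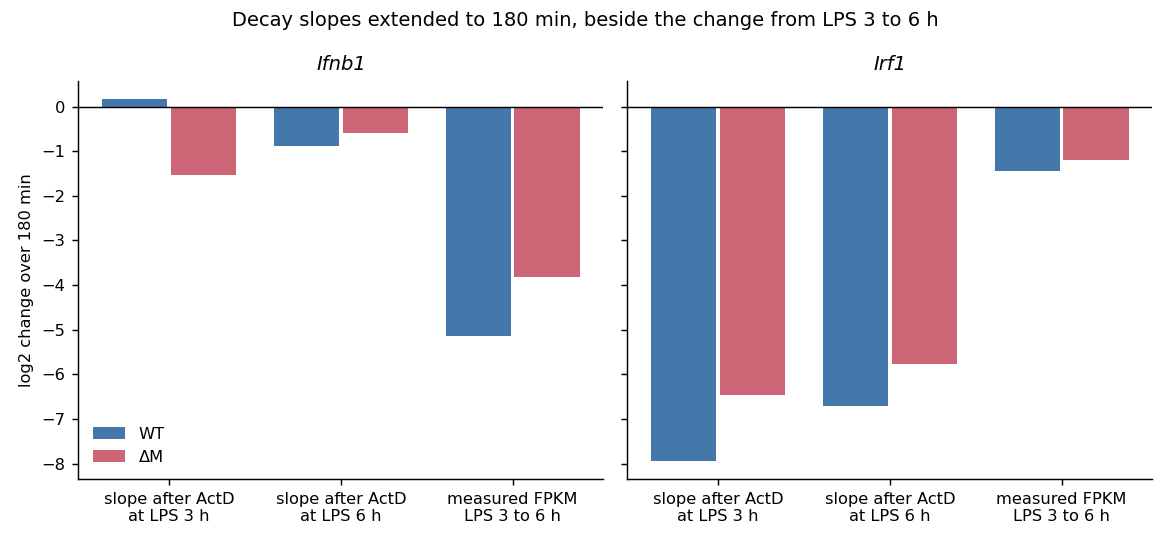
Log2 change over 180 min for Ifnb1 (left) and Irf1 (right) in WT and ΔM, as given by the slope after actinomycin D at LPS 3 h and 6 h extended to 180 min, and as measured in FPKM from LPS 3 h to 6 h (no FPKM added). Bars start at 0, with 1 value per bar. For Ifnb1 the measured loss (35.3-fold in WT) exceeds both slopes, and for Irf1 (2.72-fold in WT) both slopes exceed the measured loss.

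Genes with the most similar course were sought for Ifnb1, Irf1 and Irf7 over the 6 groups without ActD, by Pearson's r of log2(FPKM + 1) among 3757 genes that reached 10 FPKM and varied at least 2-fold. The r values are descriptions over 6 pooled values. The closest to Ifnb1 were Fabp4, Med21, Tmem39a, Cxcl1 and Pip5k1a, with r between 0.953 and 0.998. Of these, Cxcl1, a neutrophil-attracting chemokine, had the widest range, with 629 (WT) and 1589 FPKM (ΔM) at 3 h and 24.3 and 444 FPKM at 6 h. The closest to Irf1 were Foxp4, Zcchc2, a gene without a symbol, Wdr43 and Arhgef3, with r between 0.995 and 0.9995. The closest to Irf7 were Clec4a1, Il18bp, Ube2l6, Ass1 and Ccl8, with r between 0.990 and 0.996. Il18bp, the secreted inhibitor of interleukin 18, was at 8.24 FPKM in untreated WT, 28.2 FPKM in untreated ΔM and 119 and 141 FPKM at 6 h.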

How the data were processed

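The FPKM values were deposited by the authors as 1 value per gene and group, after mapping with GSNAP to mm10 (submitters' processing notes) and quantification with Mix² (the study's methods). Libraries were made with the SENSE mRNA-Seq kit. The slopes were deposited by the authors as a linear fit of log2 FPKM on time after ActD, and the half-lives as -1 over that slope in min. The 6 columns of the authors' own DESeq2 comparisons (log2 fold changes and adjusted p-values) were not used. The depth per library is unknown, and no test was possible with 1 value per group.

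Log2 ratios of FPKM used a pseudocount of 1 and genes with a mean of at least 1 FPKM in the 2 groups, with 2-fold as the limit. The share of all such genes past the same limit stands beside each count of members. Calculations used Python 3.11.15 with numpy 2.4.6, pandas 2.3.3 and scipy 1.17.1, and the figures matplotlib 3.10.9. They were tested on simulated data. Transcript GC content comes from the longest GENCODE vM1 transcript of each gene and the 3′ UTR from the one with the longest coding part, and gene positions and promoters from RefSeq (GRCm38.p6), matched by symbol. Crosslinked sequences were checked against NCBIM37.

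The members and the lists were chosen with earlier results of these data known. Named are the 10 members, up to 6 list genes past 2-fold per list and comparison, and the 5 genes closest to Ifnb1, Irf1 and Irf7. The half-lives given for Irf2bp2, Irf2bpl and Socs1 were chosen after their values were seen. Alternatives were another pseudocount or none, no filter, centring on all genes or on genes of like GC content, and other fold or half-life limits. Another half-life limit was run only for the counts of unstable members, not for the calls of slower or faster decay.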

Additional observations from a re-analysis of the deposited data

How the results depend on the processing

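Counts of members were within 1.5 times their main value in 59 of 64 recalculations. With a limit of 1.5-fold the count was 2 in place of 1 for ΔM over WT at 0 h (Irf1 joining Irf7), 5 in place of 3 for LPS 0 to 3 h in ΔM (Irf3, lower, and Irf7 joining), and 1 in place of 0 for slower decay in ΔM at 6 h (Irf2, half-lives 1.5-fold apart). With a half-life limit of 120 min the unstable members were 3 in place of 5 in WT at 3 h and 1 in place of 3 in ΔM at 6 h. Of 276 recalculated values of single members 267 counted as unchanged. A log2 ratio so counted stayed on its side of 2-fold and, where called, within 1.5 times and in the same direction. A slope difference was checked only where called, for size and direction and not against a limit. The count of 267 says nothing of how far values that were not called moved. Of these, 11 changed sign (Ifnar1 from 0 to 3 h in ΔM went from -0.12 to 0.22 relative to the median gene) and others, such as Irf3 at 3 h, shrank. The recalculated values that did not stay so were the ratios of Ifnb1 from 0 to 3 h, which depend on the pseudocount (7.57 in WT with 0.1 FPKM), the ratios of Irf1, Irf2 and Irf7 near 2-fold once the median gene was taken off, and the 3 h slope differences of Ifnb1 and Irf5 after GC centring. No direction of a called value was reversed. No paired analysis was possible because the columns carry no replicate number, and leaving out each replicate in turn was not run for the same reason. With 1 value per group, differences as small as those of the receptor chains or Irf9 cannot be set against replicate error.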
